A study of Mus musculus with 12 samples.

Results

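The nuclear genes of oxidative phosphorylation were followed in 2 RNA-seq comparisons in male mice, of sperm from Xap5l KO mice and of whole testes in which Xap5 was deleted in germ cells. Members were the entries of each count table whose symbol begins with Nduf, Uqcr or Atp5, with Sdha, Sdhb, Sdhc or Sdhd, or with Cox followed by a number, leaving out 8 sperm-table names that hold -ps. This gave 106 of 51826 entries in the sperm table and 116 of 23502 in the testis table, for 111 distinct genes in either table and 104 in both. The testis table repeats 5 of these genes under 7 numbered entries, for example Ndufs3 and Ndufs3-2. After a filter on low counts 104 sperm entries and 114 testis entries were tested, and Cox6a2 and Cox8b, muscle isoforms, were tested in neither (at most 0.457 CPM, counts scaled to library size, in any library).

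Mature sperm came from the cauda epididymis of P56 mice, 3 WT and 3 Xap5l KO libraries, in which Xap5l had been disrupted in all cells with CRISPR/Cas9 and a pair of guide RNAs. Whole testes came from P16 mice, 3 WT and 3 Xap5 cKO libraries, in which a floxed Xap5 allele was deleted by Cre expressed from the Stra8 locus (Stra8-GFPCre), active in germ cells, so that somatic cells of the testis kept the gene. The mice were of C57BL/6J background, and the study describes controls of the conditional line as floxed males without Cre. The labels call both control groups WT and do not say whether a library is 1 animal or a pool, so p-values measure the spread between these libraries, which may be technical. Xap5 and Xap5l, listed as Fam50a and Fam50b, encode related nuclear proteins.

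Oxidative phosphorylation is carried out in the inner mitochondrial membrane. Complexes I, II, III and IV pass electrons from NADH and succinate to oxygen and complex V, the ATP synthase, uses the resulting proton gradient to make ATP. Most subunits and all assembly factors are encoded in the nucleus, and a few core subunits in mitochondrial DNA. Male germ cells replace some somatic components by testis-specific ones, among them the complex IV isoforms Cox6b2, Cox7b2 and Cox8c in place of Cox6b1, Cox7b and Cox8a, and cytochrome c Cyct in place of Cycs. Sperm keep mitochondria in the midpiece of the flagellum.

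Library totals ranged from 32251198 to 52308452 counts. In sperm, counts of Fam50b were 574, 440 and 419 in the WT libraries and 18, 23 and 8 in those of the KO. Fam50a was at 16.6, 16.8 and 14.9 CPM in WT and 8.45, 8.79 and 11.1 CPM in KO sperm (log2 fold change -0.76 ± 0.201 SE, adjusted p = 0.0393 by edgeR), and did not pass when any library other than KO replicate 3 was left out (adjusted p from 0.0506 to 0.15), nor with library totals alone (0.193), no filter (0.0788) or a replicate block (0.0757). In testes, Fam50a counts of 819, 811 and 988 (WT) and 673, 616 and 651 (Xap5 cKO) gave a log2 fold change (mutant over WT, here and throughout) of -0.33 ± 0.126 (SE, adjusted p = 0.0495 by edgeR), while Fam50b counts were 532, 539 and 197 against 6, 0 and 7. The Fam50a difference in testes did not pass with either DESeq2 alternative, library totals alone, no filter or a replicate block (adjusted p from 0.0544 to 0.0608), nor without WT replicate 1 or 3 or any 1 of the cKO libraries (up to 0.17). The WT testis library numbered 3 stood apart: its correlation with the Xap5 cKO libraries was 0.952 to 0.956, against 0.924 to 0.93 for the other WT testes. In sperm, normalization factors were 0.821 and 0.808 for the libraries numbered 1 of either genotype and 1.08 to 1.12 for the other 4. Summed levels of leukocyte markers were 783 to 864 CPM in WT sperm and 149 to 509 CPM in Xap5l KO sperm, with 2 of 9 markers lower. Epididymal epithelium markers summed to 6080 to 8200 against 4300 to 5970 CPM (0 of 6 tested passed by edgeR) and erythroid markers to 4510 to 22800 against 1640 to 5550 CPM (0 of 6). Sertoli cell markers summed to 638 to 759 against 1050 to 1330 CPM (1 of 6 lower). Most of that sum was Clu, at 622 to 737 against 1050 to 1310 CPM (0.81, adjusted p = 0.0703 by edgeR). The other tested Sertoli markers, Sox9, Wt1, Rhox5, Cldn11 and Gata4, had log2 fold changes below 0, and the list median was -0.58. Summed levels of round spermatid markers were 85.6 to 121 against 184 to 365 CPM, with 7 of 8 higher. Elongating spermatid markers summed to 52400 to 130000 against 44900 to 83900 CPM, with 1 of 8 higher. In testes pachytene spermatocyte markers summed to 1830, 1770 and 928 CPM in WT and 209 to 277 CPM in Xap5 cKO libraries (6 of 8 lower), leptotene and zygotene markers to 1760 to 2070 against 820 to 1050 CPM (10 of 10 lower), and Sertoli cell markers to 4100 to 4520 against 7100 to 8740 CPM (7 of 8 higher). Elongating spermatid markers summed to 4.8 to 5.45 CPM in WT and 4.7 to 5.84 CPM in Xap5 cKO testes. Most of this was Gapdhs (4.03 to 5.47 CPM), the 1 marker of 8 that was tested, which did not pass. Prm2 and Smcp were at 0 in every testis library. The part of these cell markers in the results that follow was not tested, and in bulk samples fewer cells of a type and less RNA per cell cannot be told apart.

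To show the starts of the members with the largest and opposite changes, the 250 bases before the RefSeq start were read for Cox6b2, Cox7b2 and Ndufaf3, and for Cox7b, the somatic partner of Cox7b2. They are written 5′ to 3′ from the GRCm38.p6 promoter table. Capitals mark GGGCGGGG, a motif named in the study's work on sites occupied by Xap5 and Xap5l.
Cox6b2 (chr7:4753095-4753344, minus strand): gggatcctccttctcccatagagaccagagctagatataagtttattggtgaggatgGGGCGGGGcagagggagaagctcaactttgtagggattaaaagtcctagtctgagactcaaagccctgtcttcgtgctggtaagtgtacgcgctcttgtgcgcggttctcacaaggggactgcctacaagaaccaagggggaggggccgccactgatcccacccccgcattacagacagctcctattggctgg
Cox7b2 (chr5:71548206-71548455, minus strand): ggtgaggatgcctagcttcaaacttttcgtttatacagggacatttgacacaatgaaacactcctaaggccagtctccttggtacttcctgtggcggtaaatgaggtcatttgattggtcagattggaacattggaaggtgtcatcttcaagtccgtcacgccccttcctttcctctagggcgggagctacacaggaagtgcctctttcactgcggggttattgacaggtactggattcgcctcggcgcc
Ndufaf3 (chr9:108567437-108567686, minus strand): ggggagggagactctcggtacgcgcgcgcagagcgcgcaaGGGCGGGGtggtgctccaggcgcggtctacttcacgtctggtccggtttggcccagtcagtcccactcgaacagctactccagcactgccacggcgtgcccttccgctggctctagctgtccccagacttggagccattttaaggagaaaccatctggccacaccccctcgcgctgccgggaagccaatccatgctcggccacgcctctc
Cox7b (chrX:106015450-106015699, plus strand): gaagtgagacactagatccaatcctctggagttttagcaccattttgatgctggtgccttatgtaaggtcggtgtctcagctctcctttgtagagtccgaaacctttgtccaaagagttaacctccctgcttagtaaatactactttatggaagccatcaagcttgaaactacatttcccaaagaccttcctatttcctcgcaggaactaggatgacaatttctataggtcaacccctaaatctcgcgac
GGGCGGGG lay at -193 to -186 before the start of Cox6b2 and at -210 to -203 before that of Ndufaf3, counting -1 as the last base before the start, and these letters were not in the windows of Cox7b2 or Cox7b. G and C made up 54.8% of the Cox6b2 window, 50.4% of Cox7b2, 65.6% of Ndufaf3 and 43.6% of Cox7b. Over 97 promoters of 90 member genes, 17 (17.5%) held GGGCGGGG or its complement on either strand, against 16.1% of all 32851 promoters. CCGGAAG, the core of sites for GABP, an Ets factor known to act on respiratory chain genes, was held by 20 member promoters (20.6%, against 6.91% of all). The palindromic motif of NRF-1, another regulator of these genes, was held by 5 (5.15% against 0.782%), the cAMP response element TGACGTCA by 4 (4.12% against 1.55%) and AAGATGG, read by YY1, by 3 (3.09% against 4.49%). A match is a description of the letters and not a measured site.

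In WT sperm, per kb of exon, the highest members were Cox8a, a small complex IV subunit, at 215 CPM per kb, Cox7a2l, classed as a factor of respiratory supercomplexes, at 200 CPM per kb, and Cox4i1, the regulatory complex IV subunit, at 147 CPM per kb. In WT testes they were Cox6a1 at 189, Atp5b, the catalytic beta subunit of the ATP synthase, at 184 and Cox4i1 at 154 CPM per kb. The tables were normalized separately, so levels set across them are descriptions. Subunits had a median of 36.8 CPM in WT sperm (n = 74 entries) and 54.4 CPM in WT testes (n = 83 entries). Assembly factors, which build the complexes and are not part of them, had medians of 6.88 and 18.8 CPM. The lowest tested member was Cox7a1, a muscle isoform, in sperm, at 0.256 CPM, and Cox4i2, a lung isoform, in testes, at 1.13 CPM.

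Between WT and Xap5l KO sperm, in CPM after normalization, the summed level of somatic subunits was lower in every KO library for each of the 5 complexes. The mean of each of the 3 germ-cell isoforms of complex IV was higher. Of 104 members tested, 1 rose and 6 fell at an adjusted p under 0.05 (quasi-likelihood test of edgeR, Benjamini-Hochberg over 20945 genes), whereas 9.02% of all genes tested rose, 3.07% fell and 12.1% did either. Cox6b2 was the 1 member that rose and it also passed a 2-fold change, as 7.59% of all genes did in that direction. No member was 2-fold lower at an adjusted p under 0.05 by edgeR or by DESeq2, beside 1.27% of all genes by edgeR. Nor was any member 2-fold lower at an unadjusted p under 0.05. Of the members, 84 had a log2 fold change below 0 (80.8%, against 54.3% of all genes), with a median of -0.34 and quartiles of -0.58 and -0.05, where the median of all genes was -0.08. At an unadjusted p under 0.05 by edgeR, 33 members were lower and 4 higher, beside 3128 lower and 3888 higher of all 20945 genes. The genotypes did not overlap for 50 members (48.1%, against 38.3% of all genes). Summed over the 74 somatic subunits, levels were 3570, 3630 and 3710 CPM in WT and 2780, 2830 and 2950 CPM in Xap5l KO sperm, so that the KO libraries lay between 0.766 and 0.812 of the WT mean and below each WT library. This separation depended on the normalization factors (0.808 to 1.12). As shares of all counts, without these factors, the sums ran from 0.225% to 0.412% and the genotypes overlapped. Xap5l KO libraries 2 and 3 then lay above WT library 1.

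The 7 members past the threshold depended on the libraries, as did the calls over all genes (1889 higher and 643 lower with every library kept). When WT library 2 was left out, 0 members passed by the same test, and 18 were lower and 2 higher at an unadjusted p under 0.05. This was also so without WT library 3 (20 and 2), without Xap5l KO library 1 (24 and 3) and without Xap5l KO library 2 (19 and 3). Over all genes, 1 rose and 1 fell without WT library 2, and likewise without WT library 3. Without Xap5l KO library 1 these counts were 483 and 71, and without Xap5l KO library 2 they were 1 and 2. Leaving out WT replicate 1 gave 14 members lower and 2 higher (1197 and 2219 of all genes). Leaving out Xap5l KO replicate 3 gave 10 members lower and 2 higher (974 and 3006 of all genes). Without both libraries numbered 1, chosen after their normalization factors were seen, no gene of the table passed, the median of the members was -0.21 and 73 of 104 were below 0, with 24 members lower and 4 higher at an unadjusted p under 0.05. DESeq2's Wald test passed 2 higher and 13 lower, and edgeR with DESeq2 size factors 2 higher and 3 lower. With library totals alone 0 passed in either direction, 11 were lower and 3 higher at an unadjusted p under 0.05, and the median was -0.32.

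**Figure D1:**
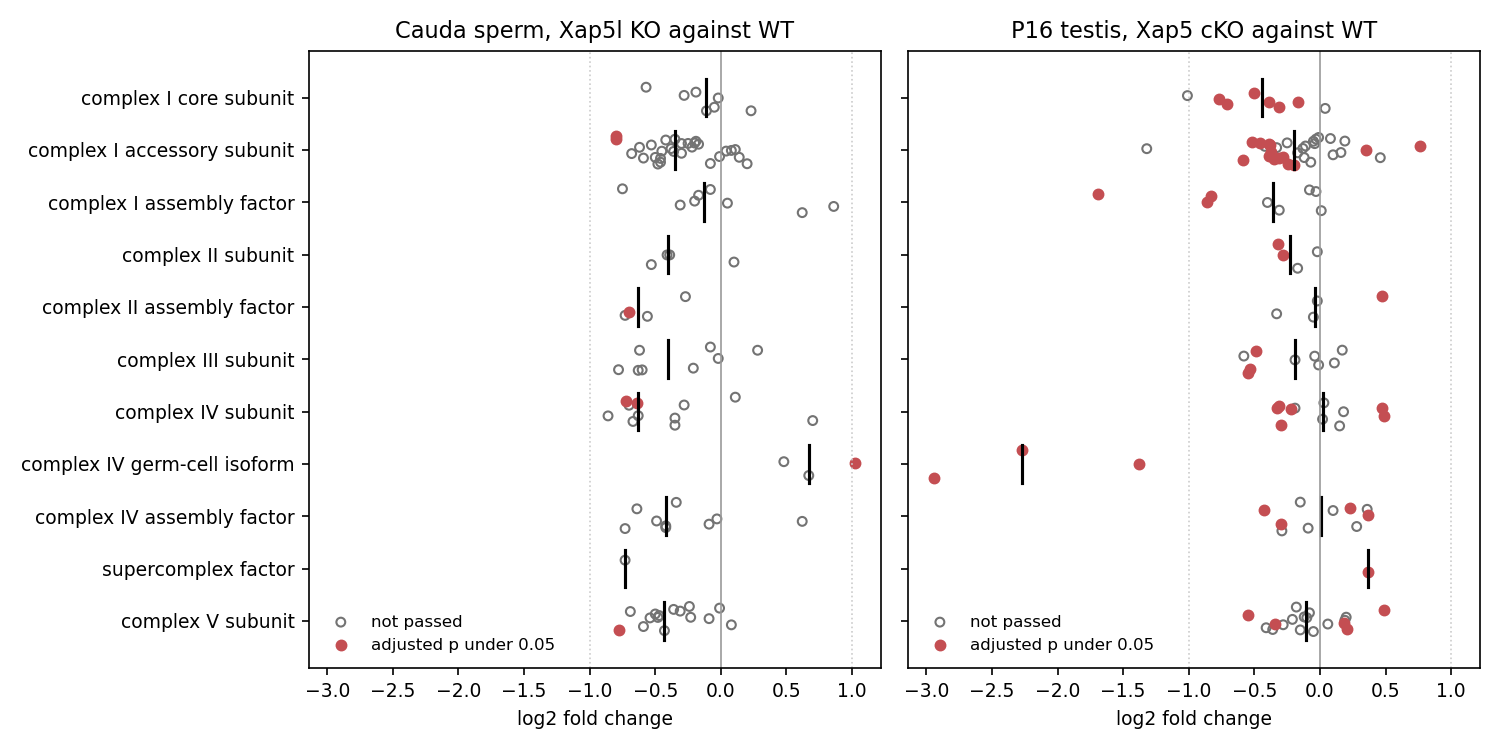
Log2 fold change (horizontal axis) of each tested member, by role (vertical axis), for Xap5l KO against WT sperm and Xap5 cKO against WT testes. Filled points passed an adjusted p under 0.05, open points did not, black bars are medians and dotted lines mark a 2-fold change. The germ-cell isoforms of complex IV have a median of 0.67 in sperm and -2.27 in testes.

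Complex I takes electrons from NADH and is the largest of the complexes. Its 7 core subunits, which carry the flavin and the iron-sulfur clusters, had a median of -0.11, and 0 of them passed (edgeR, 1 lower at an unadjusted p under 0.05). Ndufs8 was at 16.5, 19.4 and 20.4 CPM in WT and 11.4, 11.4 and 15 CPM in KO sperm, with no overlap and a log2 fold change of -0.57 ± 0.206 (SE, adjusted p = 0.0881). Of the 29 accessory subunits, which surround the core, 2 fell and the median was -0.35. Ndufb11, a membrane-arm subunit encoded on the X chromosome, was at 82.1, 77.4 and 85.7 CPM in WT and 49.9, 49 and 41.5 CPM in KO sperm. It fell by 0.8 on the log2 scale (SE 0.194, adjusted p = 0.0312), and each KO library lay below each WT library. Its exons (X, 20615326 to 20617619) overlap Rbm10 on the other strand, and the use of strand in counting was not stated. Ndufc2, another membrane-arm subunit, went from 26.2, 34.5 and 35.7 CPM to 17.6, 17.2 and 20.4 CPM and fell by 0.8 (SE 0.205, adjusted p = 0.0362). Ndufb5, in contrast, was at 23.1 to 23.4 CPM in WT and 18.7 to 19.2 CPM in KO sperm, without overlap, and did not pass (adjusted p = 0.255).

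Of the 8 complex I assembly factors 5 were below 0, with a median of -0.13, and none passed by edgeR's test (1 higher at an unadjusted p under 0.05). Ndufaf3, which helps to assemble the early part of the complex, was at 28.3, 17.1 and 18.5 CPM in WT and 31.8, 40.7 and 43.4 CPM in KO sperm. All KO libraries lay above all WT libraries, and the log2 fold change of 0.86 ± 0.247 (SE) just missed the threshold (adjusted p = 0.0505). It passed with DESeq2 size factors (0.9, adjusted p = 0.0474). When 1 library was left out, its log2 fold change ranged from 0.71 to 1.11, with adjusted p by edgeR from 0.0291 to 0.206. Its exons overlap Impdh2 on the other strand. Ndufaf4 was at 3.8 to 4.09 CPM in WT and at 9.14, 6.37 and 2.9 CPM in KO sperm, where 1 KO library lay below the WT range (adjusted p = 0.255). The other 6 had log2 fold changes between -0.75 and 0.05.

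Complex II, succinate dehydrogenase, links the tricarboxylic acid cycle to the chain, and all its subunits are nuclear. Sdha, the flavoprotein, was at 75.2, 84.1 and 72.9 CPM in WT and 43.8, 61.1 and 69.8 CPM in KO sperm (log2 fold change -0.41 ± 0.226 SE, adjusted p = 0.226). Sdhb, the iron-sulfur subunit, was at 13.4 to 16.3 CPM and 15 to 16 CPM, with overlap (0.1, adjusted p = 0.732). The membrane anchors Sdhc (-0.53, adjusted p = 0.117) and Sdhd (-0.39, adjusted p = 0.201) did not overlap between genotypes and did not pass. The assembly factor Sdhaf2, which attaches the flavin to Sdha, fell from 14.6, 16.3 and 17 CPM to 8.99, 10.6 and 9.82 CPM, a log2 fold change of -0.7 ± 0.19 (SE, adjusted p = 0.0428). Its exons overlap Cpsf7 on the other strand.

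Complex III passes electrons from ubiquinol to cytochrome c. None of its 8 subunits passed by edgeR's test, 4 were lower at an unadjusted p under 0.05, and the median was -0.41. Uqcrb had the lowest value, with 46.5, 46.7 and 49.5 CPM in WT and 36.4, 25.4 and 21.5 CPM in KO sperm (log2 fold change -0.78 ± 0.232 SE, adjusted p = 0.0551). Its transcript has near-identical copies in 3 other genes, so its counts may include or lose reads of these. Uqcrc1 and Uqcrc2, the paired core proteins, differed in sign: Uqcrc2 was at 44.4 to 52.7 CPM in WT and 28.4 to 37.1 CPM in KO sperm (-0.62, adjusted p = 0.0669), and Uqcrc1 at 55.3 to 70.5 and 64.7 to 86 CPM (0.28, adjusted p = 0.368).

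Complex IV, cytochrome c oxidase, reduces oxygen, and 2 of its 11 somatic subunits fell. Cox6b1, the somatic partner of Cox6b2, was at 60.9, 64.1 and 62.3 CPM in WT and 41.7, 39.9 and 38.8 CPM in KO sperm, and fell by 0.64 on the log2 scale (SE 0.183, adjusted p = 0.0499). Cox7b, the partner of Cox7b2, was at 32.2, 38 and 32.4 CPM and 21.7, 17.8 and 22.9 CPM, and fell by 0.72 (SE 0.198, adjusted p = 0.0453). Cox8a, the partner of Cox8c, was at 109, 129 and 160 CPM and 82.5, 90.3 and 72.5 CPM, without overlap, but did not pass (-0.7 ± 0.225 SE, adjusted p = 0.068). Cox4i1 was at 214, 238 and 232 CPM and 139, 154 and 150 CPM (-0.63, adjusted p = 0.0725). Cox7a2l was at 258, 288 and 342 CPM in WT and 192, 189 and 155 CPM in KO sperm (-0.73, adjusted p = 0.0656). Against these, Cox7a2 was at 43.1 to 47.4 CPM in WT and at 60.3, 49.1 and 110 CPM in KO sperm, where KO replicate 3 was far above the other libraries (0.7, adjusted p = 0.13). None of the 9 complex IV assembly factors passed by edgeR's test (2 lower at an unadjusted p under 0.05), the nearest being Cox14, at 25.9, 35.3 and 38.5 CPM and 18.6, 21.9 and 19.5 CPM (-0.73, adjusted p = 0.0517).

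The germ-cell isoforms stood on the other side of 0. Cox6b2 (chromosome 7, 4751792 to 4753094, minus strand) was at 20, 13.1 and 20 CPM in WT and 43.2, 41.6 and 22.7 CPM in KO sperm. It rose with a log2 fold change of 1.02 ± 0.288 (SE, adjusted p = 0.0485). KO replicate 3 lay close to the WT libraries. Without it the log2 fold change was the highest of the leave-one-out values, which ranged from 0.83 to 1.34 with adjusted p from 0.0052 to 0.188. Cox8c (chromosome 12, 102899316 to 102900526) was at 29, 14.8 and 18.2 CPM and 34.8, 34 and 29.7 CPM. The genotypes did not overlap, the lowest KO library lying next to WT replicate 1, and the difference did not pass (0.67 ± 0.262 SE, adjusted p = 0.11). Cox7b2 (chromosome 5, 71442824 to 71548205) was at 9.62, 6.54 and 5.65 CPM and 10.4, 10.3 and 9.61 CPM, with WT replicate 1 and KO replicate 3 almost equal (0.48 ± 0.238 SE, adjusted p = 0.19).

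Complex V makes ATP with a catalytic head and a membrane ring. Of its 15 subunits 14 had a log2 fold change below 0, with a median of -0.43, and 1 fell. Atp5f1, the b subunit of the stalk that holds the head, was at 69.1, 65.4 and 64.3 CPM in WT and 37.7, 37.6 and 40.4 CPM in KO sperm, a log2 fold change of -0.78 ± 0.184 (SE, adjusted p = 0.0293). Its exons overlap Wdr77 on the other strand and it has a near-identical copy in 1 other gene. Atp5a1, the alpha subunit of the head, was at 162, 155 and 166 CPM and 104, 115 and 122 CPM, without overlap (-0.5 ± 0.201 SE, adjusted p = 0.117). The beta subunit Atp5b was at 190 to 191 CPM in WT and 166, 199 and 173 CPM in KO sperm, and the genotypes overlapped (-0.09, adjusted p = 0.788). Atp5md and Atp5mpl are held by the sperm table under the older names Usmg5 (-0.56, adjusted p = 0.0955) and 2010107E04Rik (0.06, adjusted p = 0.866), outside the rule. Entries that match only by their first letters did not pass: Atp5s (0.07) and Atp5sl (-0.04) in sperm, and Ndufb4b (-0.32) and Ndufb4c (-0.41), copies related to Ndufb4, in testes.

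**Figure D2:**
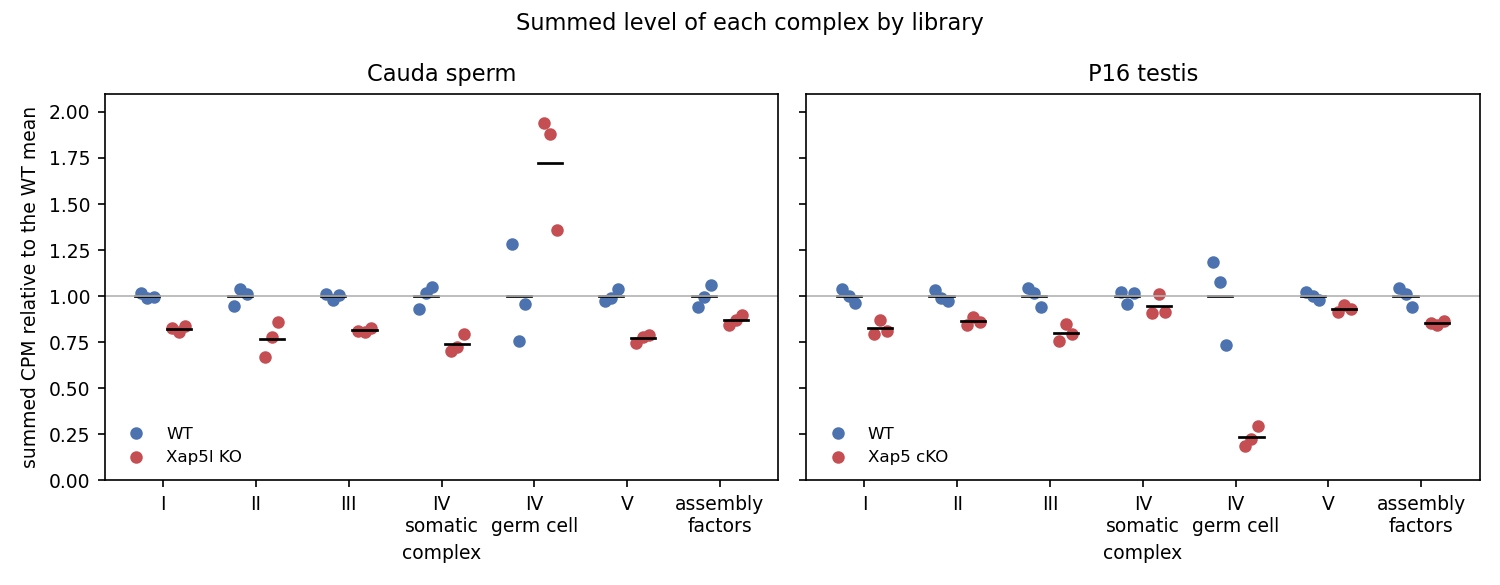
Summed CPM of the members of each complex, divided by the mean of the 3 WT libraries (vertical axis), for each library of sperm and testis. Each point is a library and each bar a group mean. In sperm, after scaling by normalization factors of 0.808 to 1.12, the somatic subunits of every complex lie below 1 in all KO libraries. The germ-cell isoforms of complex IV lie between 1.36 and 1.94 in KO sperm and between 0.186 and 0.296 in Xap5 cKO testes.

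The mRNAs encoded in mitochondrial DNA varied widely among sperm libraries. Their 13 entries summed to 230000, 211000 and 164000 CPM in WT and 332000, 165000 and 89600 CPM in KO sperm, a spread within the KO libraries that covered the WT range. Nuclear genes around the chain that were not members were read beside them, where 12.1% of all genes passed in sperm in either direction. Cycs, somatic cytochrome c, was at 26.5, 32.7 and 37.3 CPM and 23, 19.4 and 17.5 CPM (-0.69, adjusted p = 0.0612), and Cyct at 4.13, 2.45 and 2.44 CPM and 4.97, 4.42 and 3.67 CPM (0.54, adjusted p = 0.215). Slc25a4, the somatic ADP/ATP carrier, had -0.66 (adjusted p = 0.0579), and Slc25a31, the germ-cell carrier, was at 0.993 to 2.52 and 0.857 to 1.46 CPM (-0.42, adjusted p = 0.482). Atpif1, which inhibits the ATP synthase, and the regulators Ppargc1a and Tfam did not pass (-0.07, 0.14 and 0.26, adjusted p = 0.876, 0.763 and 0.593). In counts, 0 of 3 cytochrome genes and 0 of 4 carriers passed by edgeR's test. Of 11 coenzyme Q genes 1 rose and 1 fell, and 1 rose among 13 genes of the tricarboxylic acid cycle and 1 among 7 of pyruvate use. Among 27 other assembly factors 1 rose, and 0 of 11 regulators passed. The riser of the pyruvate list was Pdha2, the testis-specific pyruvate dehydrogenase subunit, at 15.9, 12.6 and 9.28 CPM in WT and 27.8, 27.4 and 27.3 CPM in KO sperm (1.13 ± 0.229 SE, adjusted p = 0.0195). Its somatic counterpart Pdha1 was at 76.6 to 115 CPM and 51.7 to 66.9 CPM (-0.72, adjusted p = 0.0684).

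Between WT and Xap5 cKO testes the germ-cell isoforms fell 2.6- to 7.68-fold, several complex I and III genes fell by less, and a smaller set rose. Of 114 members tested, 11 rose and 37 fell at an adjusted p under 0.05 (edgeR, over 16821 genes), beside 25% and 28.1% of all genes, or 53.1% in either direction. Thus 32.5% of the members fell, near the share of all genes, and 9.65% rose. A 2-fold change was also passed by 4 members, all lower (Cox8c, Cox6b2, Ndufaf3 and Cox7b2), where 10.9% of all genes were 2-fold lower. None was 2-fold higher at an adjusted p under 0.05 by edgeR or DESeq2, as 4.15% of all genes were by edgeR. Nor was any member 2-fold higher at an unadjusted p under 0.05. Of the members 81 had a log2 fold change below 0 (71.1%, against 50.5% of all genes), with a median of -0.17 beside -0.01 for all genes. The genotypes did not overlap for 63 members (55.3%, against 62.3% of all genes). Summed over 83 entries, somatic subunits were at 6910, 6690 and 6550 CPM in WT and 5760, 6190 and 5870 CPM in Xap5 cKO testes, between 0.857 and 0.922 of the WT mean. The 4 members kept the 2-fold call under every alternative tried, while the number past the adjusted p alone ranged from 6 to 12 higher and from 20 to 35 lower when 1 library was left out. It was 6 higher and 22 lower without WT replicate 1, 7 and 20 without Xap5 cKO replicate 1, 7 and 34 without Xap5 cKO replicate 2, and 8 and 24 without Xap5 cKO replicate 3.

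Cox8c was at 73.5, 66.3 and 40.4 CPM in WT and 5.56, 8.57 and 9.29 CPM in Xap5 cKO testes, or -2.94 ± 0.259 on the log2 scale (SE, adjusted p = 3.4e-05). Cox6b2 was at 62.2, 61.2 and 38.5 CPM and 9.45, 10.5 and 13.7 CPM (-2.27 ± 0.211 SE, adjusted p = 4.31e-05). Cox7b2 was at 62.7, 52.9 and 44.2 CPM and 16.1, 18.8 and 26.6 CPM (-1.38 ± 0.195 SE, adjusted p = 0.000361). In all 3 genes every cKO library lay below every WT library, and WT replicate 3 was the lowest of the WT libraries, as it was for the pachytene markers. Leaving out 1 library at a time gave log2 fold changes of -3.16 to -2.74 for Cox8c, -2.46 to -2.15 for Cox6b2 and -1.61 to -1.22 for Cox7b2, each with an adjusted p of at most 0.00315.

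Of their 3 somatic partners, 2 rose and 1 did not pass. Cox8a was at 55.4, 51.4 and 63.4 CPM in WT and 79.2, 85.4 and 71.5 CPM in cKO testes and rose by 0.47 on the log2 scale (SE 0.102, adjusted p = 0.00395). Cox7b was at 14.9, 14.3 and 19.2 CPM and 22, 24.6 and 21 CPM (0.49 ± 0.15 SE, adjusted p = 0.0224), and it did not pass without WT replicate 1 or 2 or Xap5 cKO replicate 1 or 2 (adjusted p from 0.0517 to 0.0825). Cox6b1 was at 28.1, 26.4 and 35.9 CPM and 36.7, 33.3 and 30.6 CPM, with overlap (0.15, adjusted p = 0.373).

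**Figure D3:**
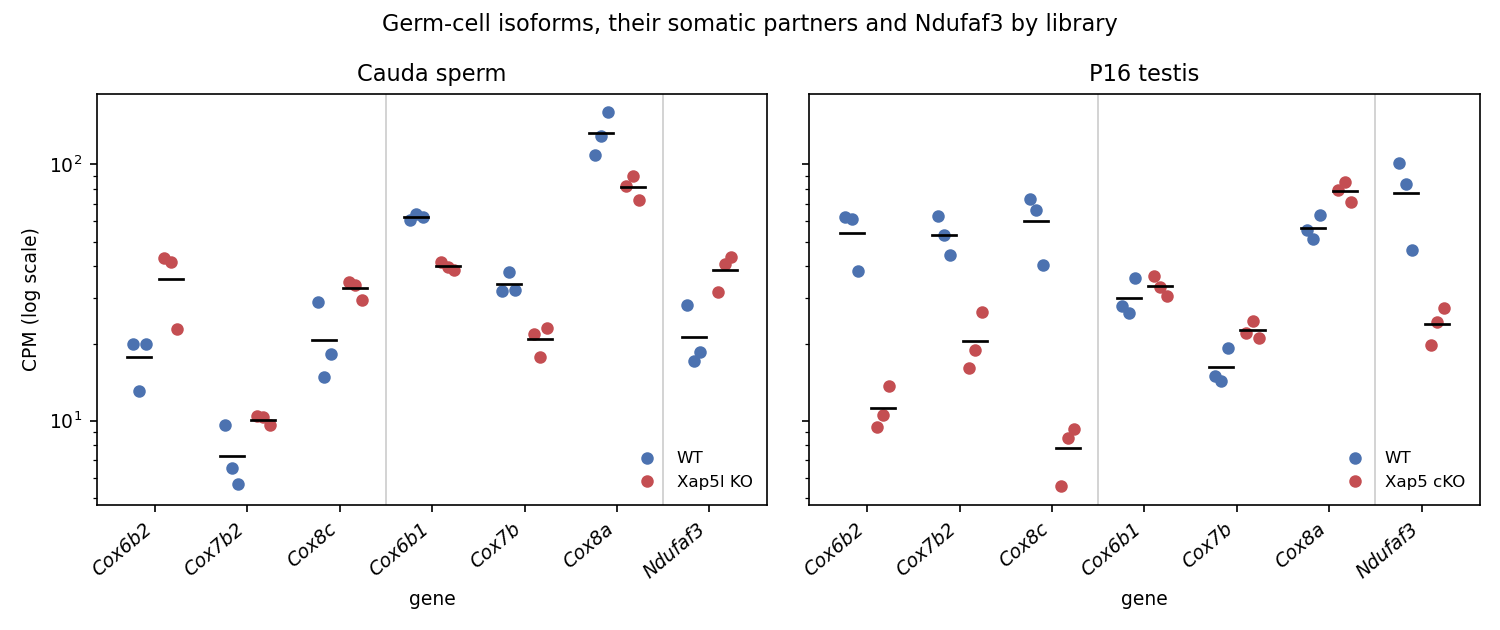
CPM (vertical axis, log scale) of the germ-cell isoforms Cox6b2, Cox7b2 and Cox8c, of their somatic partners and of Ndufaf3 in each library. Points are libraries, in the order of their replicate numbers, and black bars are group means. In sperm the means of the germ-cell isoforms and Ndufaf3 are higher in Xap5l KO and those of the partners lower, and in testes the pattern is turned, with Cox8c at 5.56 to 9.29 CPM in Xap5 cKO.

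To put the isoforms on 1 scale, each was given as a share of its pair after division by exon length. In sperm the Cox6b2 share was 17.3%, 11.6% and 17% in WT and 39.8%, 40% and 27.2% in Xap5l KO, with means of 15.3% ± 3.24 and 35.7% ± 7.34 (SD, n = 3 each). The Cox7b2 share was 32% ± 7.02 in WT and 52.2% ± 3.98 in KO sperm, and the Cox8c share 17.7% ± 7.56 and 35.2% ± 1.33 (SD, n = 3 each). The size of a share depends on the lengths used, which count the exons of all annotated transcripts (542 bases for Cox7b2, 1214 for Cox7b). In raw counts the mean Cox7b2 share in sperm was 17.5% in WT and 32.8% in KO. In testes the Cox6b2 share was 58.5%, 59.7% and 40.7% in WT and 14.1%, 16.8% and 22.2% in Xap5 cKO libraries. The Cox7b2 share was 87.8% ± 3.53 and 66.4% ± 6.58, and the Cox8c share 58% ± 10.2 and 11.9% ± 3.14 (SD, n = 3 each). No pair overlapped between genotypes in either tissue, and the two-sided exact permutation test gave p = 0.1 for each of the 6 comparisons, the smallest p that 3 against 3 libraries allow. Adjustment over the 6 leaves 0.1. In sperm 38.3% of all genes, and in testes 62.3%, had CPM values that did not overlap.

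**Figure D4:**
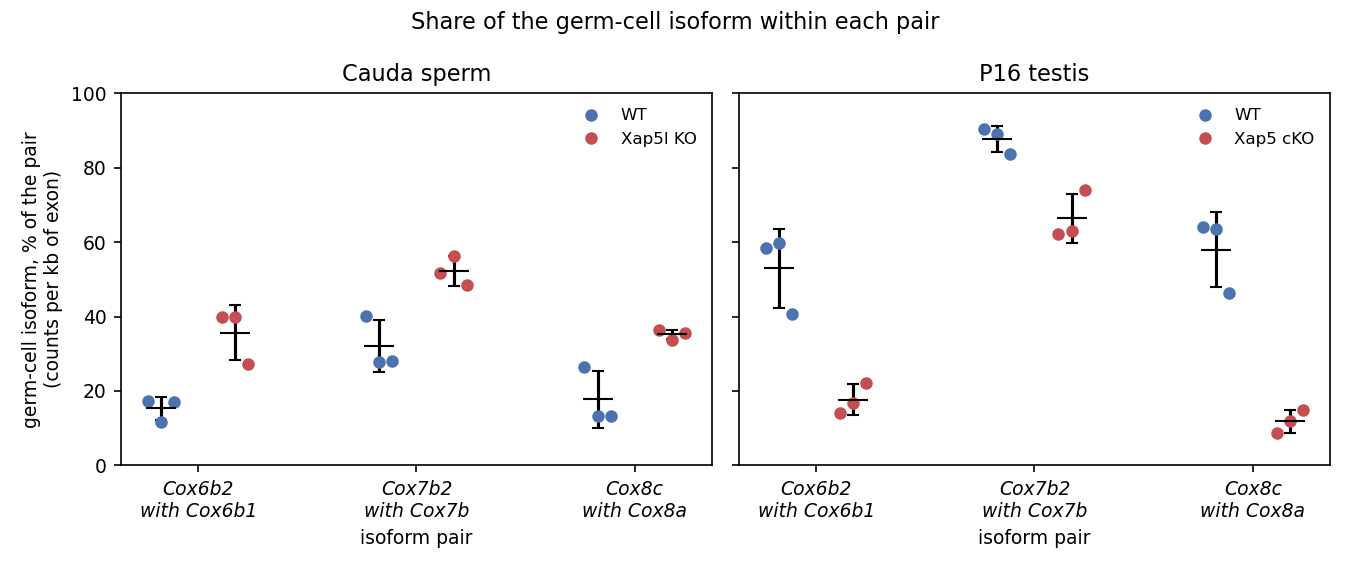
Share of the germ-cell isoform in each pair (vertical axis, percent of the pair's counts per kb of exon) by library. Points are libraries, horizontal marks are means and error bars are SD (n = 3). The shares are higher in Xap5l KO sperm than in WT sperm and lower in Xap5 cKO testes than in WT testes, for example 11.9% against 58% for Cox8c in testes.

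Of the complex I genes in testes, 18 of 41 subunit entries fell (43.9%, against 28.1% of all genes) and 2 rose (4.88%, against 25%), with a median of -0.25. The genotypes did not overlap for 56.1% of these entries, against 62.3% of all genes. Among 8 core entries 6 fell. Ndufv2, of the NADH-binding module, was at 139, 137 and 128 CPM in WT and 75, 83.9 and 79 CPM in cKO testes, a log2 fold change of -0.77 ± 0.0692 (SE, adjusted p = 3.76e-05). Ndufs1, the largest core subunit, was at 161, 160 and 141 CPM and 98.5, 88.6 and 94.1 CPM (-0.71 ± 0.0749 SE, adjusted p = 7.56e-05). Ndufv1, which binds NADH, was at 126, 125 and 112 CPM and 83.2, 87 and 86.2 CPM (-0.5, adjusted p = 0.000314), and Ndufs7 and Ndufs8 fell by 0.39 and 0.31. These 5 subunits were lower in each cKO library than in any WT library. Ndufs3 could not be read in this way, because its counts were divided unevenly between entries, with 32.5, 15.4 and 6.25 CPM in WT under Ndufs3 and 36, 56 and 53.8 CPM under Ndufs3-2. Summed, its value was -0.18 (adjusted p = 0.177).

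Of the accessory subunits 12 of 33 entries fell, led by Ndufa9 at 108, 95.6 and 87.1 CPM in WT and 61.9, 65.6 and 64.8 CPM in cKO testes (-0.59 ± 0.0877 SE, adjusted p = 0.000462). Ndufb11 and Ndufv3 rose. Ndufb11 was at 32.6, 26.4 and 34.5 CPM and 50.2, 57.6 and 50.8 CPM, a log2 fold change of 0.76 ± 0.12 (SE, adjusted p = 0.000649), the largest rise of a member, with reads of Rbm10 on the other strand not separable. Summed over its 4 entries, Ndufa7 had -0.38 (adjusted p = 0.0104), although no entry passed alone.

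Among the complex I assembly factors 3 of 8 fell. Ndufaf3 was at 101, 84.2 and 46.4 CPM in WT and 19.7, 24.2 and 27.6 CPM in cKO testes (-1.69 ± 0.256 SE, adjusted p = 0.000528), and WT replicate 3 was again the lowest WT library. Its log2 fold change ranged from -1.96 to -1.46 when 1 library was left out. Ndufaf2 was at 19.2, 18.1 and 18.5 CPM and 8.8, 10.3 and 11.6 CPM (-0.86 ± 0.151 SE, adjusted p = 0.00121). Ndufaf7, a methyltransferase, was at 44.3, 39.7 and 40.1 CPM and 20.9, 25.3 and 23.7 CPM (-0.83 ± 0.108 SE, adjusted p = 0.000233). For the last pair WT replicate 3 lay among the WT libraries.

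In complex II, Sdha was at 256, 257 and 246 CPM in WT and 207, 201 and 215 CPM in cKO testes (-0.28 ± 0.0541 SE, adjusted p = 0.00199) and Sdhb at 95, 90.9 and 85.9 CPM and 70.8, 81.3 and 65.8 CPM (-0.32 ± 0.0905 SE, adjusted p = 0.0155). With WT replicate 1 left out Sdhb had an adjusted p of 0.055, and with Xap5 cKO replicate 1 left out 0.0525. The anchors Sdhc (-0.17, adjusted p = 0.138) and Sdhd (-0.02, adjusted p = 0.824) overlapped between genotypes. The assembly factor Sdhaf3 was at 9.94, 11.9 and 12 CPM and 18.4, 14 and 14.3 CPM and rose by 0.47 (SE 0.168, adjusted p = 0.0409). It no longer passed without WT replicate 1, WT replicate 2, Xap5 cKO replicate 1 or Xap5 cKO replicate 3 (adjusted p from 0.0548 to 0.158) or with a replicate block (0.0821). In complex III, 3 of 9 entries fell. Uqcrc2 was at 179, 191 and 176 CPM and 120, 122 and 132 CPM (-0.55 ± 0.0637 SE, adjusted p = 0.000127). Uqcrc1, summed over its 2 entries, had -0.56 (adjusted p = 0.00088), and Uqcrb had -0.49 (adjusted p = 0.00631).

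The 11 somatic complex IV subunits were divided, with 4 lower, 2 higher and a median of 0.02. Cox4i1 was at 251, 236 and 229 CPM in WT and 182, 200 and 197 CPM in cKO testes (-0.31 ± 0.0624 SE, adjusted p = 0.0028), and Cox7a2, Cox5b and Cox5a fell by 0.33, 0.3 and 0.22. The 2 that rose were Cox8a and Cox7b, described above. Cox6a1 was at 129 to 140 and 127 to 147 CPM (0.03, adjusted p = 0.717). Of the 10 assembly factor entries, Cox10, which makes heme O, fell (-0.43, adjusted p = 0.0102), as did Cox11, a copper chaperone (-0.3, adjusted p = 0.025). Cox14 (0.37, adjusted p = 0.00847) and Cox15, which makes heme A (0.23, adjusted p = 0.0321), rose. Cox7a2l rose from 104, 93.5 and 93.3 CPM to 128, 124 and 124 CPM (0.37 ± 0.0668 SE, adjusted p = 0.0014).

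In complex V 3 of 18 entries rose and 2 fell. Atp5pb, the current name of Atp5f1, was at 243, 251 and 255 CPM in WT and 158, 176 and 177 CPM in cKO testes (-0.55 ± 0.0619 SE, adjusted p = 0.000103). Atp5o, a stalk subunit, fell by 0.34 (SE 0.0593, adjusted p = 0.00127). Atp5g3, which encodes subunit c of the membrane ring, was at 110, 95.3 and 97.7 CPM and 137, 152 and 136 CPM and rose by 0.49 (SE 0.0769, adjusted p = 0.00062), while its paralogs Atp5g1 (0.2, adjusted p = 0.0981) and Atp5g2 (0.19, adjusted p = 0.0735), which encode the same mature protein, did not pass. Atp5b was at 802, 796 and 737 CPM and 722, 708 and 722 CPM, without overlap (-0.12 ± 0.0511 SE, adjusted p = 0.0817). Atp5a1 did not pass under either of its entries but had -0.21 (adjusted p = 0.0101) when they were summed. The tissue-restricted isoforms Cox4i2, Cox7a1 and Ndufa4l2 were at or below 4.58 CPM in all testis libraries and did not pass (0.09, 0.41 and 0.29, adjusted p = 0.889, 0.267 and 0.446). In sperm they did not pass either (-0.72, -0.63 and 0.52, adjusted p = 0.232, 0.64 and 0.309).

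The lists of genes around the chain were also read in testes, where 53.1% of all genes passed in either direction. Cyct fell from 40.4, 42.8 and 29.8 CPM to 3.64, 4.26 and 5.56 CPM (-3.07 ± 0.205 SE, adjusted p = 1.27e-05), and Cycs rose from 226, 231 and 267 CPM to 347, 351 and 360 CPM (0.55 ± 0.0709 SE, adjusted p = 0.000223). Slc25a31 fell from 93.8, 99.9 and 89 CPM to 41.4, 45.2 and 50.9 CPM (-1.04 ± 0.0939 SE, adjusted p = 3.76e-05), and Slc25a4 rose from 140, 137 and 141 CPM to 200, 223 and 188 CPM (0.55, adjusted p = 0.000219). In the pyruvate list 5 of 7 genes fell and 1 rose, with Pdha2 at -1.34 (adjusted p = 0.000845) and Pdha1 at 0.62 (adjusted p = 0.00605). Of 11 coenzyme Q genes 6 fell and 1 rose, of 13 tricarboxylic acid cycle genes 2 fell and 4 rose, and of 26 other assembly factors tested 9 fell and 4 rose. Among 11 regulators 4 fell and 2 rose, including Ppargc1a, a coactivator of mitochondrial biogenesis, from 2.86, 1.89 and 2.72 CPM to 4.23, 6.13 and 5.16 CPM (1.05 ± 0.269 SE, adjusted p = 0.00913). Tfam, which packages mitochondrial DNA, was not changed past the threshold (0.09, adjusted p = 0.421), and Atpif1 rose (0.28, adjusted p = 0.00706).

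Set side by side, 102 genes were tested in both tables, whose libraries are separate. Of these, 55 had a log2 fold change below 0 in both, 28 were below 0 in Xap5l KO sperm and above 0 in Xap5 cKO testes, 17 the reverse and 2 above 0 in both, whether or not they passed. Of the 7 that passed in sperm, Cox6b2 rose in sperm and fell in testes, Ndufb11 and Cox7b fell in sperm and rose in testes, and Atp5f1 fell in both. The other 3, Ndufc2, Sdhaf2 and Cox6b1, did not pass in testes (-0.12, -0.05 and 0.15, adjusted p = 0.365, 0.649 and 0.373). The 2 comparisons differ in gene, tissue and age, and the difference between them was not tested.

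**Figure D5:**
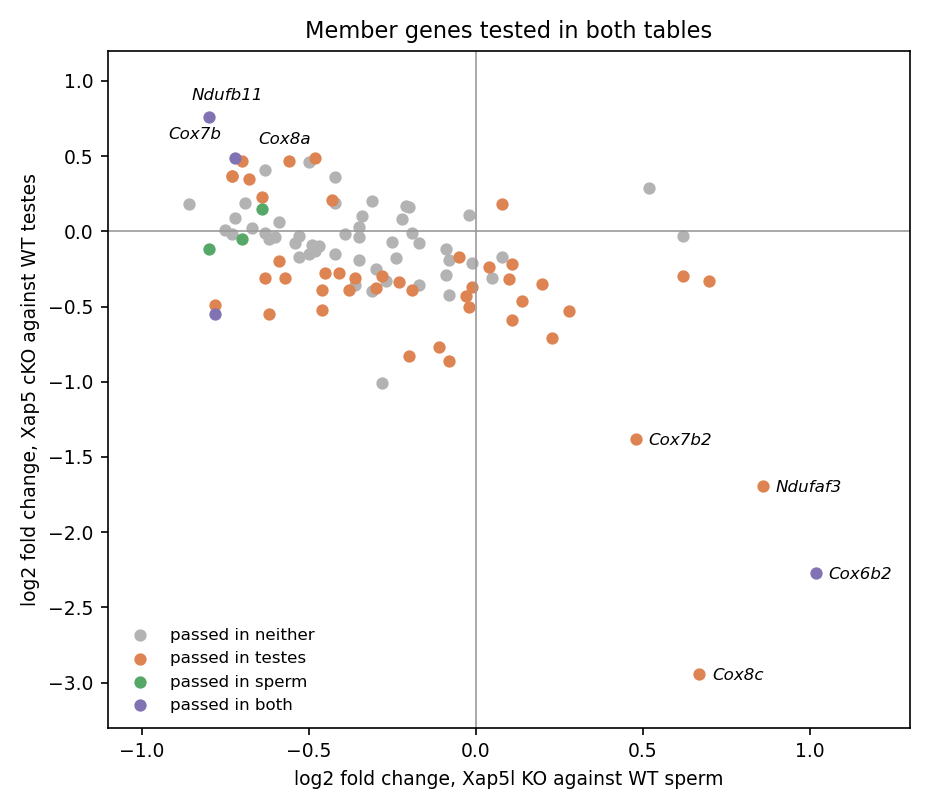
Log2 fold change in Xap5l KO against WT sperm (horizontal axis) and in Xap5 cKO against WT testes (vertical axis) for the 102 genes tested in both tables. Each point is a gene, coloured by the comparison in which it passed an adjusted p under 0.05. Cox6b2, Cox8c, Cox7b2 and Ndufaf3 lie at the lower right, with testis values from -2.94 to -1.38.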

How the data were processed

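Poly(A) RNA of 12 mouse libraries in 4 groups of 3 was sequenced by the authors as paired-end reads. Groups and replicate numbers were taken from the sample titles. Per the submitters' processing notes the reads were handled with FastQC 0.11.2 and Trimmomatic 0.36 and mapped to GRCm38 with HISAT2 2.1.0. The authors deposited whole-number counts per gene, 1 table per tissue, without normalization. The counting tool, annotation, strand setting and treatment of multi-mapping reads were not given in the sources used here. Overlaps with genes on the other strand are named above for some members only. Others have them too, among them Ndufs1, Uqcrc2, Ndufa9 and Cox4i1. Numbered testis entries of 5 member genes divide their counts unevenly between libraries. The members and the gene lists were chosen with earlier results of these data known.

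Each tissue was fitted alone in R 4.3.3 with edgeR 4.0.16 (filterByExpr, TMM, quasi-likelihood test of genotype), with Benjamini-Hochberg adjustment over all genes tested. "Rose" and "fell" mean an adjusted p under 0.05, and a 2-fold change was counted separately. CPM are counts over the TMM-scaled library size, in the usual unit, and the SE is the log2 fold change over the square root of F. The common biological coefficients of variation were 0.287 (sperm) and 0.174 (testes). The fit was tested on simulated data. Named were the isoform pairs, the 6 largest rises and falls with at least 5 CPM in either genotype (or the 3 smallest p-values where fewer than 3 passed), Sdh and F1 subunits, the 3 highest per exon length, tissue-restricted isoforms, 7 genes around the chain and both targeted genes. The values of 1 member are not reported here. Other members were named after their values were seen, to fill out each complex. Positions and exon lengths came from GENCODE M21, promoters from RefSeq (GRCm38.p6, 90 member genes matched, Cox8c not among them). Near-identical copies were found with BLAST+ 2.17.0 (at least 97% identity over 60% of a transcript and 200 bases) for 13 of 110 genes. The alternatives were DESeq2 1.42.0 with its Wald test, its size factors in edgeR, library totals alone, no filter, a replicate block, summed numbered entries, an adjusted p under 0.01, no mitochondrially encoded entries, and leaving out each library.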

Additional observations from a re-analysis of the deposited data

How the results depend on the processing

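In testes the 4 calls at a 2-fold change held under every alternative tried. At an adjusted p under 0.01, 6 members were higher and 19 lower, and leaving out 1 library gave 6 to 12 higher and 20 to 35 lower. In sperm, 2-fold calls were 0 to 2 higher and 0 to 1 lower, and calls at the adjusted p 0 to 2 higher and 0 to 14 lower, when 1 library was left out. Calls in sperm were 2 higher and 3 lower with DESeq2 size factors, 2 higher and 13 lower with DESeq2's Wald test, 2 higher without mitochondrially encoded entries, and 2 higher and 0 lower without the filter on low counts (24 lower at an unadjusted p under 0.05). They were 0 in each direction with library totals alone, at an adjusted p under 0.01, and without both libraries numbered 1 (chosen after seeing the data). The cause was not tested.

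Deviations of same-numbered libraries correlated at 0.17, -0.0191 and -0.135 in sperm and 8.08e-05, -0.0376 and -0.0452 in testes. Between differently numbered sperm libraries of the 2 genotypes the values ran from -0.196 to 0.26. With 3 libraries per genotype these correlations cannot decide whether the numbers mark a pairing. Both sperm libraries numbered 1 had low normalization factors (0.821 and 0.808). With a replicate block 0 sperm members passed in either direction (3 higher and 26 lower at an unadjusted p under 0.05), and in testes 8 were higher and 27 lower.

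Some log2 fold changes near 0 changed sign, and their extremes on leaving out 1 library are added in brackets. In sperm Atp5b was 0.02 without Xap5l KO replicate 3 and 0.05 without both libraries numbered 1, where Cox7a1 was 0.35, Slc25a31 0.3 and Ppargc1a -0.07. Slc25a31 was 0.02 without WT replicate 1 (lowest -0.69), Ppargc1a -0.03 without Xap5l KO replicate 1 (highest 0.34), and Atpif1 0.26 (lowest -0.31) and Tfam -0.17 (highest 0.5) without Xap5l KO replicate 3. In testes Sdhd was 0.02 without WT replicate 1 and 0 without Xap5 cKO replicate 3 (lowest -0.04), Cox6a1 -0.01 without Xap5 cKO replicate 2 (highest 0.08), and Cox4i2 -0.07 without WT replicate 2 and -0.23 without Xap5 cKO replicate 2 (highest 0.38). The isoform shares kept their direction. Without length correction, the Cox7b2 share in testes differed by -29.3 percentage points in place of -21.4, since only the lengths were left out. Leaving out 1 library moved the differences in share within 18.2 to 24.6 (Cox6b2), 18.1 to 24.2 (Cox7b2) and 15.3 to 21.9 points (Cox8c) in sperm, and -41.4 to -31.9, -25.2 to -19.3 and -52 to -43 points in testes. The smallest SE of a member's log2 fold change was 0.177 in sperm and 0.0511 in testes. These are the values of the best-measured member in each comparison, and other members were measured no more precisely.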
